A study of Mus musculus with 3 samples.

Results

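Folr2 macrophages of mouse dorsal skin were selected in 3 droplet single-cell RNA libraries and were chosen by the UMIs (counted RNA molecules) of a few genes in each cell barcode. A barcode was taken where 500 or more genes were detected, mitochondrial UMIs made up 15% or less, and it held at least 5 UMIs of C1qa, C1qb and C1qc together, at least 2 of Folr2, Cd209f and Fcna together, and at most 2 of the monocyte genes Ly6c2, Chil3 and Plac8. It also had to hold at most 2 UMIs of Lyz1, Ear2 and Dcstamp, which mark another skin macrophage, none of the T cell gene Cd3e and fewer than 10 of the keratinocyte genes Krt5 and Krt14. This gave 1892 macrophages among 45846 barcodes that passed the gene and mitochondrial limits, out of 51191 in all. Of these, 723 came from the library Cont, 682 from CIA and 487 from CIA+VFX.

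All mice were 9-week-old female C57BL/6 whose dorsal skin had been depilated with wax strips, in the controls as in the others. Cont mice received vehicle, CIA mice were a model of chemotherapy-induced alopecia, and CIA+VFX mice were the same model given venlafaxine (VFX), an inhibitor of serotonin and noradrenaline reuptake. The chemotherapy drug, the doses and the day of collection are not given in the sources used here. Skin of several mice was pooled for each group and digested with collagenase D, so each group is 1 library with no replicate. Every interval below is a 95% interval that covers counting error only, no difference has a test or a p-value, and differences between mice or digestions cannot be told apart from differences between groups.

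Macrophages that settle in the dermis lie along vessels, nerves and collagen, where they take up dying cells, haemoglobin and debris, and present antigen to T cells. In mouse skin those that carry the folate receptor beta, Folr2, and related scavenger receptors are known as long-lived tissue-resident cells, in contrast to cells recently derived from blood monocytes. The RNA of a digested skin gives neither the age nor the place of a cell, so "resident" and "dermal" are used here as the name of this marker profile.

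The macrophages carried all 5 markers that define them. Folr2 (the folate receptor), Cd209f (a C-type lectin) and C1qa (a chain of complement C1q) were part of the choice, and their levels are a description. Summed over the macrophages and scaled to the library's sum (CPM, counts per 1000000 UMIs; the 3′ method counts a molecule once whatever the gene's length), Folr2 stood at 1487, 1473 and 1270 CPM in Cont, CIA and CIA+VFX, Cd209f at 671, 982 and 534, and C1qa at 3267, 4560 and 3952. The 2 markers outside the choice were also high. Pf4, platelet factor 4, stood at 3927, 5366 and 5506 CPM, and Ccl8, a chemokine that attracts several leukocyte types, at 6286, 9992 and 9422. Ccl8 stood at 1960, 1097 and 872 CPM in macrophages with C1q and under 2 UMIs of Folr2, Cd209f and Fcna (Folr2-low macrophages), and at 39.0, 76.6 and 31.5 in the Lyz1 and Ear2 macrophages.

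The genes most particular to the set by level were ranked by the lowest of the 3 library ratios to the highest of 4 other myeloid sets, which were the Folr2-low macrophages, monocytes, the Lyz1 and Ear2 macrophages and Cd209a dendritic cells. Cd209f (55.9-fold), Fcna (24.4-fold) and Folr2 (23.9-fold) had been used to choose the cells. Of the genes not used, Cd209g had the highest ratio (28.3-fold), before C6, a component of the terminal complement complex (15.4-fold), Cd209b (13.8-fold), and Lyve1, a hyaluronan receptor (10.2-fold). Ednrb, the endothelin receptor type B, followed with 6.11-fold, Fcgrt, the neonatal Fc receptor, with 4.58-fold, Hmox1, haem oxygenase 1, with 4.32-fold, and Selenop, the selenium carrier, with 3.90-fold. The Cd209 genes are close relatives in 1 gene cluster, and reads shared between them could be split or dropped in counting, so the single levels of Cd209b, Cd209d, Cd209e, Cd209f and Cd209g are uncertain.

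**Figure D1:**
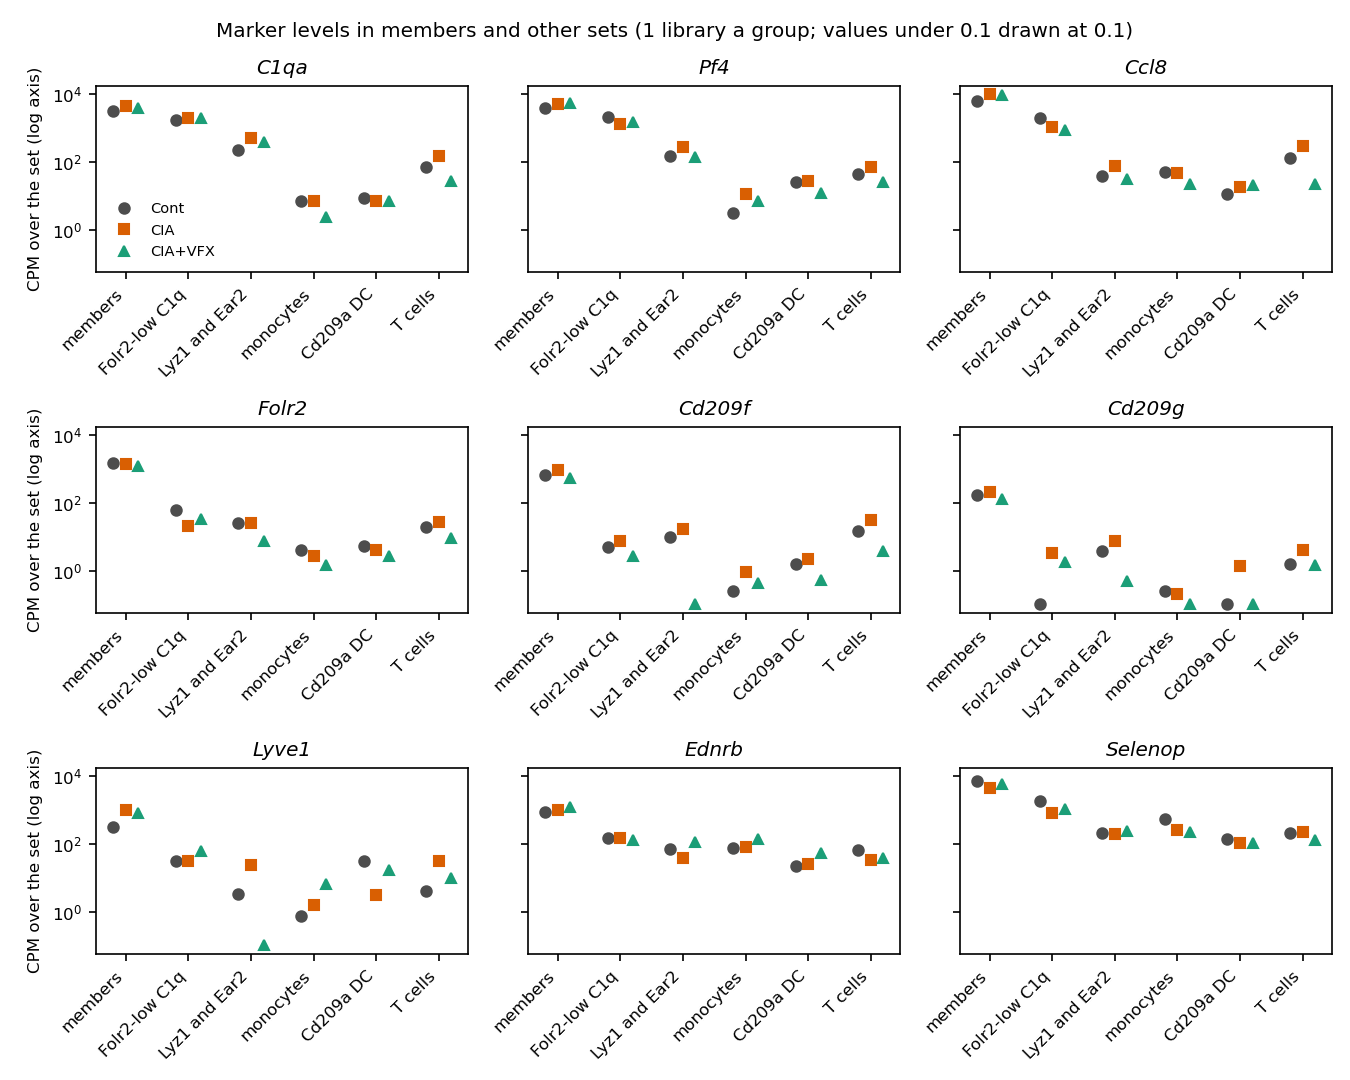
Level of the 5 given markers and 4 further genes (CPM, log axis) in the Folr2 macrophages (members) and in 5 other sets of barcodes, 1 point a library. Folr2 and Cd209f chose the cells; Pf4 and Ccl8 did not, and Ccl8 was at 6286 CPM or more in the Folr2 macrophages of each library and at 1960 CPM or less in every other set drawn.

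Few barcodes lay at the Folr2 and C1q limits of the choice. With all other limits met, 48, 41 and 44 barcodes in Cont, CIA and CIA+VFX had 1 UMI of Folr2, Cd209f and Fcna together and were left out, 54, 42 and 35 had 2 and were taken, and 585, 570 and 375 had 5 or more. Barcodes with 3 or 4 C1q UMIs numbered 9, 9 and 5, and those with 10 or more 694, 657 and 470. Many lay at the monocyte limit. Of the macrophages 249, 186 and 120 held 1 or 2 UMIs of Ly6c2, Chil3 and Plac8. A further 94, 78 and 32 barcodes had 3 or 4, and 68, 71 and 26 had 5 or more, and all of these were left out. Those with more such UMIs were deeper: in Cont the median was 4554 UMIs with none and 8149.5 with 5 or more. The macrophages had a median of 4974, 4977 and 5401 UMIs, 1885, 1968.5 and 2126 genes and 0.928%, 0.957% and 1.45% mitochondrial UMIs. A doublet caller marked 51, 83 and 45 of them (7.05%, 12.2% and 9.24%), which were kept. Of all kept barcodes it marked 5.81%, 7.07% and 7.59%, a number fixed in advance by the count of barcodes in the library. Also, 1 macrophage shared its barcode sequence between Cont and CIA+VFX.

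RNA of other cells was present at low levels and unevenly. Summed over a list of fibroblast markers, the macrophages held 519, 1264 and 1117 CPM, of which 70.3%, 51.2% and 67.9% lay in 5 barcodes of each library. Melanocyte and Schwann markers stood at 377, 57.5 and 39.1 CPM, with 88.9% of the Cont UMIs in 5 barcodes, and keratinocyte markers at 441, 372 and 689. Barcodes with at least 10 UMIs of the fibroblast or the melanocyte list numbered 10, 38 and 24 and held a median of 14580, 10689 and 9696 UMIs, against 4941, 4867.5 and 5360 in the others. The monocyte list stood at 385, 300 and 304 CPM, with Chil3 at 0 in Cont, and T and NK cell markers at 39.5, 66.3 and 49.0. Several values that rest on few barcodes are marked as such below, but not every one.

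Folr2 macrophages made up a smaller share of the skin suspension in both libraries of the model. They were 5.72% of the kept barcodes in Cont (5.32% to 6.14%, exact binomial interval), 4.12% in CIA (3.82% to 4.43%) and 2.93% in CIA+VFX (2.68% to 3.20%). The 3 intervals do not overlap, but they cover counting error only. With 1 library a group, differences between mice or digestions lie outside them. Among the barcodes with at least 5 C1q UMIs, 1343, 1463 and 931 in number, the share was 53.8% (51.1% to 56.5%), 46.6% (44.0% to 49.2%) and 52.3% (49.0% to 55.6%), so within the C1q compartment CIA was the lowest library and the intervals of Cont and CIA+VFX overlapped. Monocytes were 2.98%, 8.59% and 5.18% of kept barcodes and the Lyz1 and Ear2 macrophages 7.41%, 1.83% and 1.26%. The monocyte set was chosen by Ly6c2, Chil3 and Plac8, with no limit on fibroblast RNA. It held 13904, 7725 and 4973 CPM of the fibroblast markers, against 1726, 4213 and 4072 CPM of the monocyte list. Its shares, and its levels given below, are thus those of a mixed set whose mix may differ by library. Shares add up to 100%, so a smaller share of macrophages and a larger share of other cells released by the digestion cannot be told apart.

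**Figure D2:**
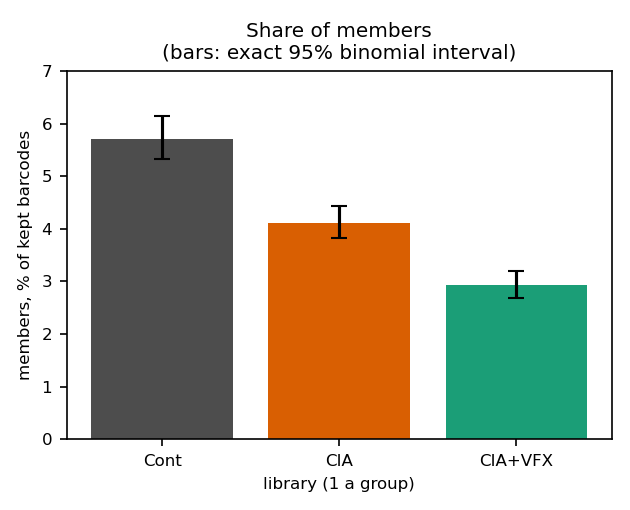
Share of the Folr2 macrophages (members) among the kept barcodes of each library (percent, bars from 0, whiskers the exact 95% binomial interval). The share ran from 5.72% in Cont through 4.12% in CIA to 2.93% in CIA+VFX.

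In the comparison of CIA with Cont, 9075 genes had at least 50 UMIs over both libraries, and 2292 of them, 25.3%, were at least 1.5-fold apart. These were 1516 higher genes (16.7%) and 776 lower ones (8.55%). The median gene had a log2 ratio of 0.12, and scaling that removes this shift gave 1131 higher and 1006 lower genes (TMM) or 1076 and 1059 (median of ratios). In the comparison of CIA+VFX with CIA, 8794 genes were measured and 809, or 9.2%, were called: 500 higher (5.69%) and 309 lower (3.51%), against 378 and 446 with TMM and 379 and 436 with median of ratios. CIA+VFX against Cont gave 1987 of 8745 called (22.7%), 1423 higher (16.3%) and 564 lower (6.45%), with a median gene at 0.18, and 806 and 935 with TMM. Both comparisons with CIA use the same CIA library, so its counting error moves them in opposite directions, and their values are set side by side here without being related. Each list count below is to be read against the shares of all measured genes in its comparison.

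**Figure D3:**
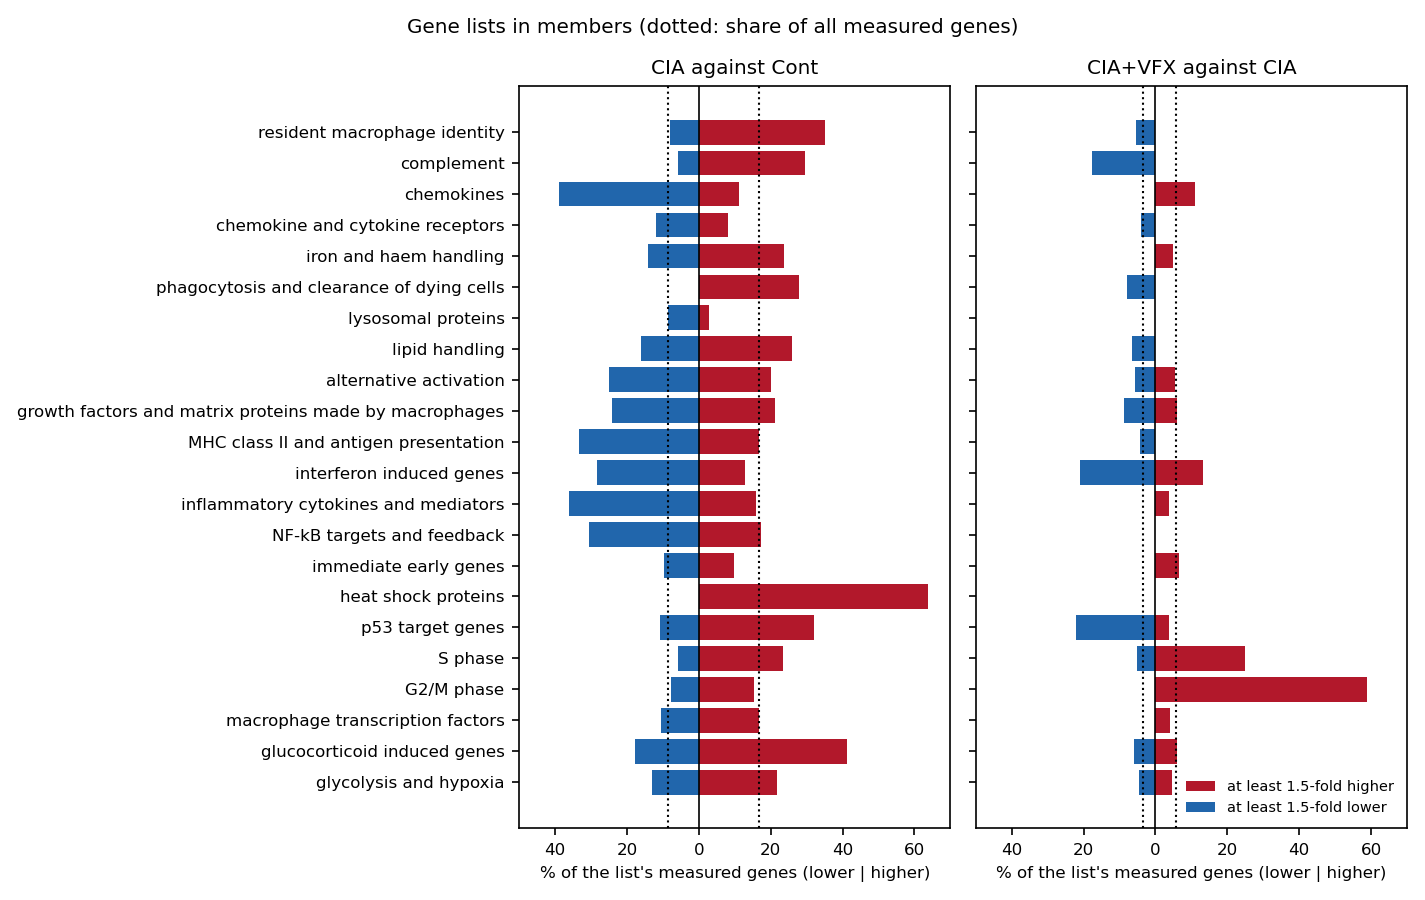
Share of each gene list's measured genes that were at least 1.5-fold higher (red) or lower (blue) in the Folr2 macrophages (members), with dotted lines at the shares of all measured genes. Against Cont, the heat shock list of CIA stood out to the higher side (14 of 22 genes) and the chemokine list to the lower side (7 of 18); against CIA, the G2/M list of CIA+VFX stood out to the higher side (10 of 17).

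Of 37 measured genes of a resident macrophage list, 13 were called higher and 3 lower in CIA, with a median log2 ratio of 0.24. Among all measured genes 16.7% were higher and 8.55% lower, with a median of 0.12, so the 3 lower genes were near that share. Lyve1 stood at 325, 1023 and 845 CPM in Cont, CIA and CIA+VFX, a log2 ratio of 1.65 (1.56 to 1.74) in CIA against Cont and of -0.27 (-0.35 to -0.20) in CIA+VFX against CIA. Cd163, the scavenger receptor for haemoglobin bound to haptoglobin, stood at 327, 801 and 556 CPM, with ratios of 1.29 (1.20 to 1.38) and -0.53 (-0.61 to -0.44). Both genes were thus lowest in Cont and highest in CIA.

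Cd209d followed the same order with 295, 952 and 666 CPM, and Cd209e, a low gene, with 12, 65.5 and 28.1. Cbr2, a carbonyl reductase known from resident macrophages, was at 885, 1552 and 1349 CPM (log2 ratio of CIA to Cont 0.81, 0.75 to 0.87). Timd4, a receptor for phosphatidylserine on dying cells, was at 74.0, 116 and 61.7 CPM, and its level in CIA+VFX was below that of CIA by a log2 ratio of -0.92 (-1.17 to -0.66). Timd4 and Cd209g were the only genes of the 37 called in CIA+VFX against CIA, both lower, a share (2 of 37) near the background of that comparison. By contrast Mrc1, the mannose receptor, was at 3262, 3334 and 3736 CPM, and Csf1r, the receptor for the survival factor CSF1, at 661, 559 and 639. Maf, a transcription factor of mature macrophages, was at 715, 760 and 853. These 3 genes differed by less than 1.5-fold between any pair of libraries. Selenop was the largest lower gene of the list by level, at 7122, 4496 and 5896 CPM (log2 ratio of CIA to Cont -0.66, -0.69 to -0.64).

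The higher Lyve1 level was spread over the cells. Each macrophage with at least 3000 UMIs was thinned to 3000, which kept 572, 533 and 407 cells and dropped 151, 149 and 80. After thinning, 48.6% of the Cont macrophages held a Lyve1 UMI (44.4% to 52.8%), 80.3% of those in CIA (76.7% to 83.6%) and 76.9% in CIA+VFX (72.5% to 80.9%). Unthinned, the shares were 58.4%, 83.7% and 83.4%. Of T cells thinned in the same way, which should lack this gene, 0.186%, 2.54% and 1.05% held a Lyve1 UMI. Free RNA and doublets in the T cell set cannot be told apart. Cd163 UMIs were in 25.9%, 53.1% and 37.3% of the macrophages and in 0.558%, 1.59% and 0.42% of the T cells.

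Retnla showed the largest difference between CIA and Cont of any gene at 1000 CPM or more in either library. It encodes the secreted resistin-like molecule alpha, an induced product of macrophages exposed to interleukin 4 or 13. The level was 15888 CPM in Cont, 3069 in CIA and 2262 in CIA+VFX, a log2 ratio of -2.37 (-2.40 to -2.34) for CIA against Cont and of -0.44 (-0.48 to -0.40) for CIA+VFX against CIA. The Cont library was highest by far, and within it the cells were uneven: a thinned macrophage held a median of 36 Retnla UMIs, the upper quartile was 89.25 and 21.9% of the cells held none. In CIA 51.6% and in CIA+VFX 65.6% held none, and the median was 0 in both. Other macrophages shared the difference, with 14677, 3081 and 2856 CPM in the Lyz1 and Ear2 macrophages and 2922, 536 and 221 in the Folr2-low macrophages. T cells, as a measure of free RNA and doublets together, held 560, 31.5 and 56.2 CPM. In Cont 17.7% of thinned T cells had a Retnla UMI against 78.1% of the macrophages.

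The other genes of the alternative activation list did not follow Retnla as a block. Of 20 measured genes 4 were called higher and 5, Retnla among them, lower in CIA, with a median of -0.17. Among all measured genes 16.7% were higher and 8.55% lower, so the lower genes were above their share and the higher ones near it. Without the called doublets 2 of 15 were higher. Clec7a, the beta-glucan receptor Dectin-1, stood at 87.0, 10.5 and 12 CPM, a log2 ratio of -3.05 (-3.55 to -2.58) in CIA. It had 41 UMIs in CIA and 35 in CIA+VFX, of which 26.8% and 37.1% lay in 5 barcodes. In the Lyz1 and Ear2 macrophages Clec7a was at 283, 508 and 399 CPM, so there it was higher in the libraries of the model. Irf4, a transcription factor of this activation state, was at 70.7, 42.1 and 25 CPM, and Ccl24, an eosinophil attractant, was on the higher side with 365, 595 and 492. In CIA+VFX against CIA 1 gene of 18 was called higher and 1 lower, near the 5.69% and 3.51% of all measured genes.

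The genes of MHC class II, which present antigen to helper T cells, were lower in both libraries of the model in these macrophages. H2-Aa stood at 2280, 671 and 717 CPM, H2-Ab1 at 1630, 625 and 598, and H2-Eb1 at 1250, 489 and 438. Cd74, the invariant chain that guides these molecules, stood at 5962, 2262 and 2169 CPM. The log2 ratios of CIA to Cont ran from -1.76 (-1.83 to -1.70) for H2-Aa to -1.35 (-1.43 to -1.28) for H2-Eb1, and those of CIA+VFX to CIA from -0.16 for H2-Eb1 to 0.10 for H2-Aa. The levels of both libraries of the model were thus close to each other and far below Cont.

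H2-DMa and H2-DMb1, which load peptides, were also lower in CIA, with log2 ratios of -0.92 and -0.99. Against 8.55% lower and 16.7% higher among all measured genes, 8 of 24 genes of antigen presentation were called lower and 4 higher in CIA. The 4 higher genes were thus near the share of all genes. The higher ones included Psmb8, a subunit of the immunoproteasome, at 105, 215 and 149 CPM. Among class I genes H2-K1 stood at 1664, 985 and 862 CPM while B2m, the shared light chain, stood at 3225, 3328 and 2781. With TMM scaling the higher genes numbered 2 rather than 4.

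Fewer of the macrophages held many class II UMIs in both libraries of the model. Counting H2-Aa, H2-Ab1, H2-Eb1 and Cd74 together, a thinned macrophage held a median of 17 UMIs in Cont and of 2 in both CIA and CIA+VFX. Fewer than 10 UMIs were found in 40.6%, 73.9% and 72.0% of the macrophages, and 44, 27 and 23 cells lay within 2 UMIs of that line, which marks a range and not a cell type. The Folr2-low macrophages did not share the difference, with H2-Aa at 7155, 7429 and 7516 CPM, nor did the Lyz1 and Ear2 macrophages at 7940, 8977 and 8295. Monocytes held 1020, 2151 and 1394 CPM of H2-Aa, and T cells, as a measure of free RNA and doublets together, 246, 229 and 65.0.

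Retnla and Lyve1 were also compared within the macrophages under 10 class II UMIs. Their Retnla level was 16064 CPM in Cont, 2474 in CIA and 1534 in CIA+VFX, and Lyve1 stood at 380, 1101 and 880. Among those with 10 or more class II UMIs Retnla stood at 15946, 4345 and 3534 CPM and Lyve1 at 293, 791 and 738. Retnla and Lyve1 therefore differed between libraries on both sides of the line, with Cont highest in Retnla and lowest in Lyve1. Ccl8 did not: it stood at 6124, 11173 and 10518 CPM under 10 class II UMIs and at 6328, 6449 and 7101 with 10 or more, where the libraries were under 1.5-fold apart. Across the thinned cells of a library, Lyve1 and H2-Aa had Pearson correlations of -0.156, -0.213 and -0.172 (572, 533 and 407 cells that share a library and its free RNA), and Retnla and Lyve1 of 0.304, 0.248 and 0.216.

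**Figure D4:**
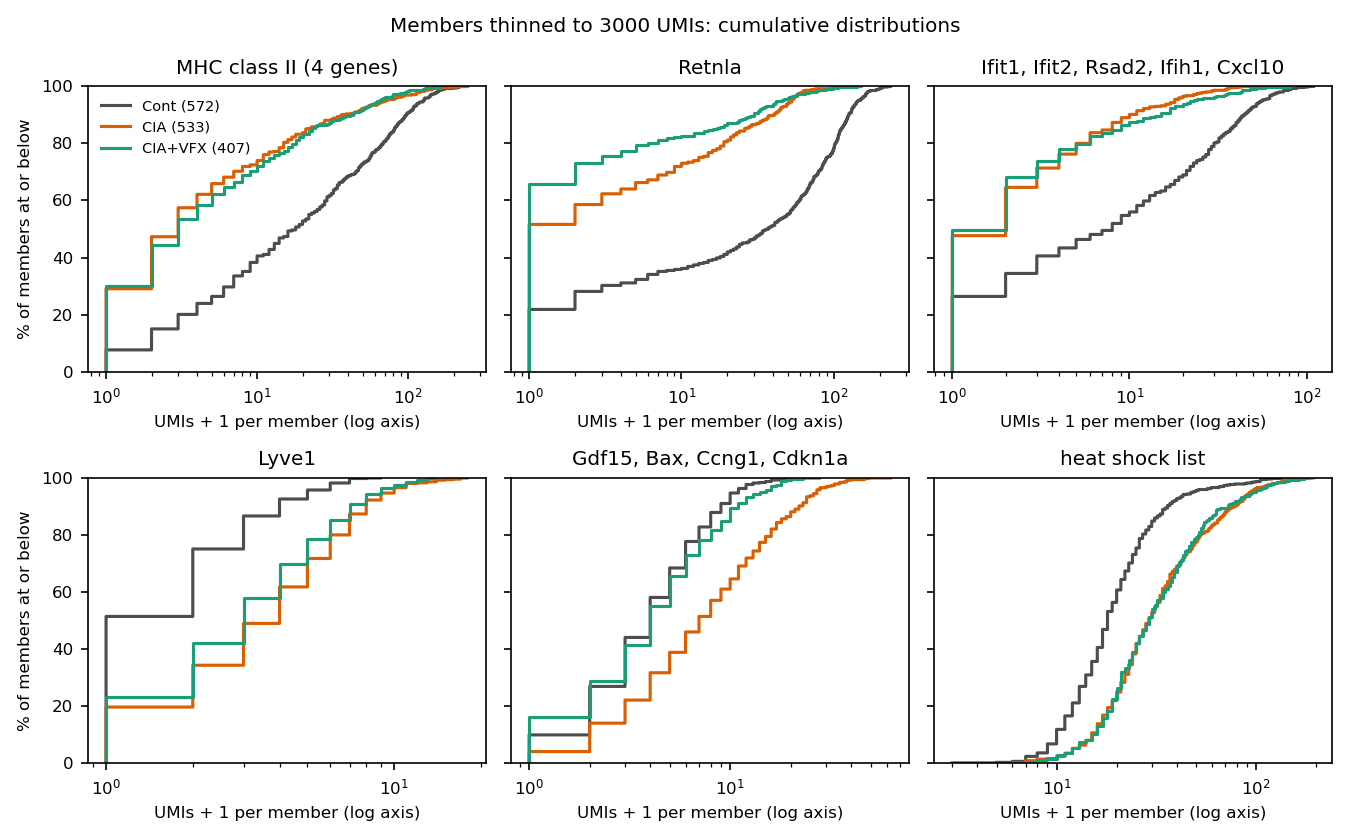
Cumulative share of Folr2 macrophages (members, percent) by UMIs per cell plus 1 (log axis) after thinning to 3000 UMIs, 1 line a library. The Cont line lies to the right of both others for MHC class II, Retnla and the interferon genes and to the left for Lyve1 and the heat shock list, while the CIA line alone lies to the right for the p53 targets.

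Genes induced by type I interferon were found on both sides. These antiviral genes respond to interferon alpha or beta through a common promoter element, and Ifnb1 is the gene of interferon beta itself. Of 39 measured genes of the list 11 were called lower and 5 higher in CIA, against 8.55% and 16.7% of all measured genes, with a median of -0.16. In CIA+VFX against CIA 8 of 38 were called lower and 5 higher, against 3.51% and 5.69% of all measured genes. The median was -0.03, and after thinning 3 of 34 were lower.

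The promoters of 4 of these genes are shown because the letters of the interferon stimulated response element, GAAA, any 2 bases and GAAA again on either strand, stand in the promoters of genes that were lower in CIA (Ifit1, Rsad2, Cxcl10) and of one that was higher (Bst2). Each line gives 120 bases, 5′ to 3′ on the gene's strand, from RefSeq on the build GRCm38.p6, with the matching letters in capitals. The Ifit1 stretch is chr19:34640765-34640884 on the + strand, Rsad2 is chr12:26456473-26456592, Cxcl10 chr5:92349003-92349122 and Bst2 chr8:71537503-71537622, all 3 on the - strand. All lie within 250 bases upstream of the gene's start, and the first match begins 104, 120, 213 and 130 bases before it.
Ifit1: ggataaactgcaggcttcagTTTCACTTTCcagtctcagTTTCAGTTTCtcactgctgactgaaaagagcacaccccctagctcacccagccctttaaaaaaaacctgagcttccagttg
Rsad2: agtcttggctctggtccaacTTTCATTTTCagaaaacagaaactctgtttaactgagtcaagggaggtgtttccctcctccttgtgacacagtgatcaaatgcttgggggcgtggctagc
Cxcl10: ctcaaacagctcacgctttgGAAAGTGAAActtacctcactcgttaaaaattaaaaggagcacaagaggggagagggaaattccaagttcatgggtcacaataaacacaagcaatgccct
Bst2: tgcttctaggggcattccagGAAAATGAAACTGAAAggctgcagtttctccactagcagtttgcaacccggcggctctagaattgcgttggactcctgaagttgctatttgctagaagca
In Bst2 the capitals are 2 matches that overlap, and Ifit1 holds 2 that do not.

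These letters were in the 250 bases before the start of 17 of the 30 interferon list genes found in the promoter table (56.7%) and of 936 of all 27025 genes (3.46%). In CIA against Cont, 1 of 17 measured genes with the letters was called higher and 5 lower, and of 11 genes without them 2 were higher and 4 lower. Genes on both sides of the comparison held these letters, and a match is a description of the sequence, not a bound site.

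The genes lower in CIA were led by sensors and effectors of the antiviral response. Rsad2, the antiviral enzyme viperin, stood at 2840, 568 and 685 CPM, with a log2 ratio of -2.32 (-2.39 to -2.26) in CIA. Ifih1, the sensor of double-stranded RNA called MDA5, stood at 1133, 230 and 262, and Ifit1, an inhibitor of viral translation, at 675, 95 and 222. Cont was the highest library for all 3, and in CIA+VFX Ifit1 lay between the others, with a log2 ratio to CIA of 1.22 (1.04 to 1.41). In CIA+VFX 36.1% of the Ifit1 UMIs lay in 5 barcodes.

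Ifnb1 itself stood at 85.5, 10.8 and 26.0 CPM, and in CIA and CIA+VFX 59.5% and 60.5% of its UMIs came from 5 barcodes. Cxcl10, a chemokine for T cells, stood at 148, 46.0 and 82.2 CPM, with 44.7% and 50.4% of the CIA and CIA+VFX UMIs in 5 barcodes. All other kept barcodes of CIA+VFX held 141 CPM of Cxcl10. The difference between Cont and CIA was spread over more cells than these: summed over Ifit1, Ifit2, Rsad2, Ifih1 and Cxcl10, 65.6% of the thinned Cont macrophages held 2 or more UMIs, 35.5% of those in CIA and 31.7% in CIA+VFX. By this share of cells CIA+VFX did not lie above CIA. Ifit1 and Rsad2 UMIs went together within each library, with Pearson correlations of 0.647, 0.486 and 0.463 across the thinned cells.

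Rsad2 in other sets was far lower, at 228, 99.1 and 117 CPM in the Lyz1 and Ear2 macrophages, at 125, 155 and 245 in monocytes and at 12.9, 6.51 and 13.3 in T cells. Ifih1 had a lower level in CIA also in the Lyz1 and Ear2 macrophages (459, 142 and 210 CPM). The Folr2 macrophages thus held the highest Rsad2 level of the sets compared, in each library.

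Of the 39 measured interferon genes 5 (Irf1, Usp18, Bst2, Xaf1 and Zbp1) were called higher in CIA, a share below the 16.7% of all genes. Irf1, a transcription factor that interferon gamma also induces, stood at 62.5, 182 and 198 CPM, a log2 ratio of 1.54 (1.33 to 1.75) in CIA. Bst2, the virus tether tetherin, stood at 327, 628 and 379 CPM, and Zbp1, a sensor of Z-form nucleic acid, at 38.6, 67.8 and 36.7. Bst2 and Zbp1 were highest in CIA, and CIA+VFX lay close to Cont, with log2 ratios to CIA of -0.73 (-0.83 to -0.63) and -0.89 (-1.22 to -0.56). Irf7, the regulator of late interferon genes, stood at 53.4, 69.6 and 41.8 CPM, and Isg15 at 471, 407 and 304. Bst2 had its highest level in CIA in the Lyz1 and Ear2 macrophages too (91.0, 171 and 124 CPM).

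Of 18 measured chemokines, the secreted proteins that direct the movement of leukocytes, 7 were called lower (Ccl3, Ccl4, Ccl5, Cxcl2, Cxcl3, Cxcl10 and Cxcl14) and 2, Ccl8 and Ccl24, higher in CIA. The shares of all measured genes were 8.55% lower and 16.7% higher. Cxcl2, a neutrophil attractant, stood at 8702, 4039 and 4111 CPM, with a log2 ratio of -1.11 (-1.13 to -1.08) in CIA. Ccl3 stood at 827, 267 and 259, and Ccl4 at 4293, 1629 and 2180. Ccl2 and Ccl7, which attract monocytes, were at 3258, 2601 and 1955 and at 4642, 4112 and 3637 CPM, within 1.5-fold of Cont in CIA. With TMM scaling Ccl24 alone, and with median of ratios neither of Ccl8 and Ccl24, was still called higher in CIA.

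Ccl5 and Cxcl10 were the chemokines called in CIA+VFX against CIA, both higher. Ccl5 stood at 94.9, 19.8 and 54.5 CPM with 77.9% and 76.7% of the CIA and CIA+VFX UMIs in 5 barcodes. In the monocyte set, which also held fibroblast RNA, Cxcl2 was on the other side, at 508, 1274 and 1515 CPM. The Lyz1 and Ear2 macrophages had 7277, 3566 and 5006 CPM of Cxcl2, the same order of Cont and CIA as in the Folr2 macrophages.

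In these macrophages more of the inflammatory cytokines were lower than higher in CIA. Of 25 measured genes 9 were called lower in CIA and 4 higher (Il16, Tnfsf9, S100a9 and Saa3), with a median of -0.31. Of all measured genes 8.55% were lower and 16.7% higher, so the 4 higher genes were near that share. Without the called doublets 1 of 24 was higher. Nlrp3, the sensor of the inflammasome, stood at 198, 45.7 and 63.7 CPM, and Il1a at 136, 34.7 and 27.4. Il6 stood at 231, 113 and 107, Tnf at 110, 59.6 and 49.7, and Il10, an anti-inflammatory cytokine, at 220, 104 and 121. Cont was the highest library for each of these 5 genes, and CIA and CIA+VFX were within 1.5-fold of each other. Summed over the list, the Folr2 macrophages held 4240, 2917 and 2847 CPM. The other sets were higher in CIA than in Cont. The Folr2-low macrophages held 3294, 6068 and 5342 CPM, the Lyz1 and Ear2 macrophages 6038, 8163 and 6626, and monocytes 2113, 6985 and 5599. Cd209a dendritic cells held 5496, 9123 and 7793, T cells 581, 940 and 641, and keratinocytes 175, 252 and 206.

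Among NF-kB targets 7 of 23 were called lower in CIA and 4 higher (2 where macrophages held no monocyte UMI), and none was called in CIA+VFX against CIA. The 4 higher genes were near the 16.7% of all genes, of which 8.55% were lower. Tnfaip3, the feedback inhibitor A20, stood at 366, 180 and 206 CPM. Immediate early genes, which respond within minutes and can be induced by tissue digestion, had 3 of 31 called on each side, or 7 lower when each macrophage had equal weight. Egr1 stood at 440, 163 and 207 CPM, Fosb at 1067, 508 and 578, Jun at 662, 997 and 1094, and Fos at 1291, 1274 and 1301. The part of the digestion in these and the chemokine values was not tested.

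Heat shock proteins, the chaperones that refold damaged proteins, had the largest share of higher genes in CIA of the gene lists, marker lists of other cells apart. Of 22 measured genes 14 were called higher and none lower, against 16.7% and 8.55% of all measured genes. The median was 0.87 against 0.12 for the median gene. Hsph1, a nucleotide exchange factor of the Hsp70 chaperones, stood at 60.1, 319 and 296 CPM, a log2 ratio of 2.41 (2.21 to 2.61) in CIA. Hspb1, the small chaperone Hsp27, stood at 165, 554 and 447, and Hspa1a, an inducible Hsp70, at 511, 1211 and 1273. Hspa8, the constitutive Hsp70, stood at 1566, 2169 and 1998 CPM, under 1.5-fold apart.

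None of the 22 was called in CIA+VFX against CIA, and the median was -0.11, so the 2 libraries of the model were alike in this list within 1.5-fold. A thinned macrophage held a median of 17, 28 and 28 UMIs of the list. Hspa1a and Hspa1b are nearly identical genes between which reads can be split, and Hspa1b stood at 552, 1302 and 1406 CPM. In the Lyz1 and Ear2 macrophages Hsph1 was also higher in the model (55.8, 137 and 110 CPM), whereas in monocytes it was lower (398, 232 and 132) and in keratinocytes it was at 168, 111 and 148. T cells stood at 129, 152 and 152 CPM of Hsph1. Summed over the whole list, the Folr2 macrophages held 7044, 12667 and 11905 CPM and the Folr2-low macrophages 7909, 10342 and 9646. The Lyz1 and Ear2 macrophages held 7494, 10340 and 9363, Cd209a dendritic cells 8733, 12508 and 11210, and T cells 7113, 9921 and 9481. These sets were thus also higher in CIA than in Cont. Monocytes (11319, 10829 and 8993) and keratinocytes (14859, 13920 and 13591) were not. The monocyte set also held fibroblast RNA, most of it in Cont, and the part of this RNA in the monocyte values was not tested. The digestion, which can itself induce these genes, was a separate one for each library, and its part was not tested.

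The promoter of Hspd1, the mitochondrial chaperonin Hsp60, at 63.3, 186 and 138 CPM, is shown because it is 1 of the 2 of this list, with its neighbour Hspe1 (101, 238 and 189 CPM), that held a strict heat shock element within 250 bases of the start. The letters searched, on either strand, were GAA, TTC and GAA, or TTC, GAA and TTC, each set 2 bases apart. They were in 2 of 18 list genes found in the promoter table (11.1%) and in 139 of 27025 genes (0.514%). The 120 bases are chr1:55087977-55088096 on the - strand (GRCm38.p6, RefSeq), and the capitals mark 2 overlapping matches, the first of which begins 144 bases before the start.
Hspd1: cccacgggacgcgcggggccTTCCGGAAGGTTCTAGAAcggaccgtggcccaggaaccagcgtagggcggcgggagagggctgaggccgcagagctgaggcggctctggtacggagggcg

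Some targets of p53, the transcription factor that DNA damage activates, were higher in CIA, and the first-ranked lower gene of CIA+VFX against CIA was among them. Gdf15, a stress-induced secreted factor of the TGF-beta family, stood at 252, 1154 and 346 CPM. Its log2 ratio was 2.20 (2.10 to 2.30) in CIA against Cont and -1.74 (-1.84 to -1.64) in CIA+VFX against CIA. The CIA library alone was high, and CIA+VFX was 0.46 above Cont on the log2 scale.

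Bax, which permeabilises mitochondria in apoptosis, stood at 57.0, 180 and 115 CPM, Ccng1, cyclin G1, at 19.9, 58.5 and 27.4, and Cdkn1a, the cell cycle inhibitor p21, at 895, 1413 and 903. Their log2 ratios of CIA+VFX to CIA were -0.65 (-0.84 to -0.46), -1.09 (-1.48 to -0.72) and -0.65 (-0.71 to -0.58). All 3 were highest in CIA, and Cdkn1a in CIA+VFX was at the Cont level. Of 28 measured p53 targets 9 were called higher and 3 lower in CIA, against 16.7% and 8.55% of all measured genes. Of 27 in CIA+VFX against CIA 6 were called lower and 1 higher, against 3.51% and 5.69%. The 3 lower genes in CIA and the 1 higher gene in CIA+VFX were near these shares. After thinning, 5 of 22 were called higher in CIA.

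Not every known target went with them: Mdm2, the p53 inhibitor, stood at 179, 204 and 148 CPM, and Pmaip1, the apoptosis gene Noxa, at 63.7, 39.0 and 48.3. In thinned macrophages Gdf15, Bax, Ccng1 and Cdkn1a together had a median of 3, 6 and 3 UMIs. Gdf15 was found with 2 or more UMIs in 14.7% of them (11.9% to 17.9%), 44.5% (40.2% to 48.8%) and 21.1% (17.3% to 25.4%). Gdf15 and Cdkn1a had Pearson correlations of 0.0662, 0.324 and 0.223 across these cells.

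Monocytes and the Lyz1 and Ear2 macrophages also held over 1.5-fold more Gdf15 and Cdkn1a in CIA than in Cont, at other levels. Gdf15 stood at 153, 228 and 89.3 CPM in the Folr2-low macrophages, at 16.8, 52.7 and 18.3 in the Lyz1 and Ear2 macrophages and at 13.7, 43.2 and 43.7 in monocytes. T cells held 8.89, 16.3 and 54.7 CPM. Cdkn1a was at 837, 1412 and 1112 in the Lyz1 and Ear2 macrophages and at 508, 1243 and 1005 in monocytes. The Folr2 macrophages had the highest Gdf15 level of the sets compared in each library.

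**Figure D5:**
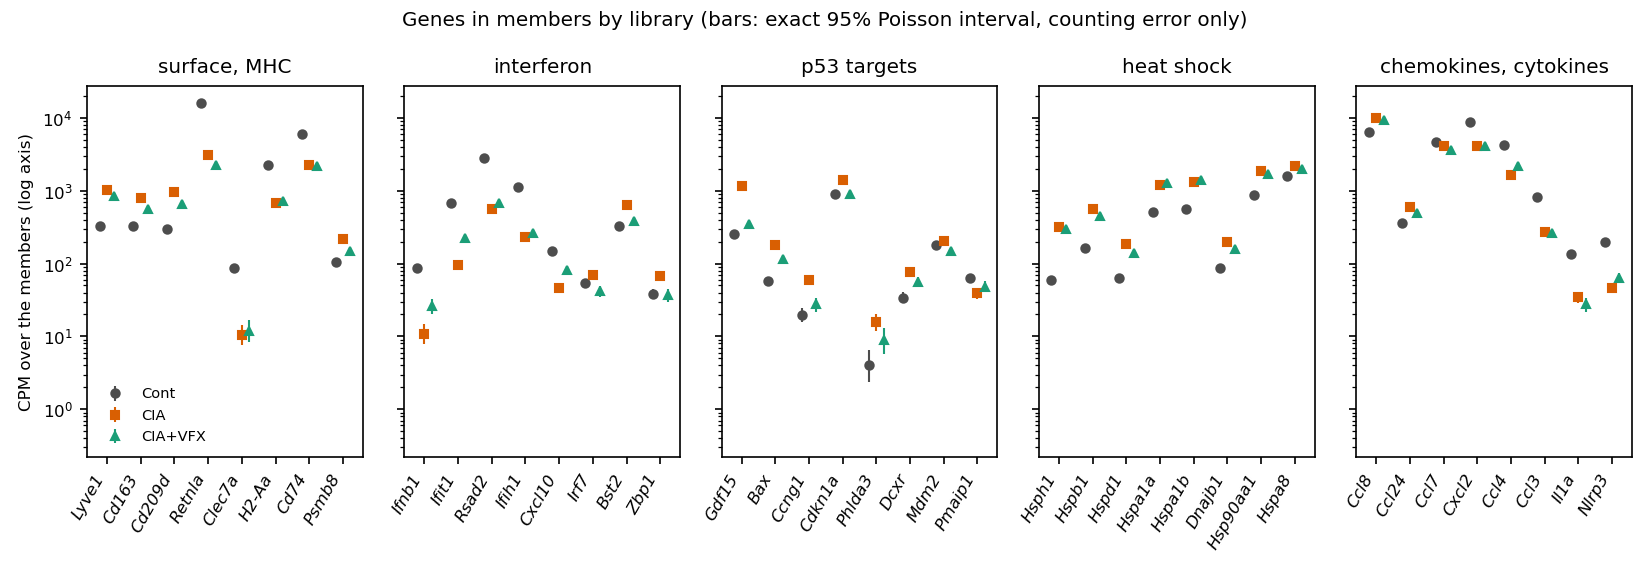
Level of 40 genes in the Folr2 macrophages (members; CPM, log axis) by library, with exact 95% Poisson intervals, many smaller than the symbols. Retnla, MHC class II, Ifih1, Rsad2 and Cxcl2 were highest in Cont; Gdf15, Bax, Ccng1 and Cdkn1a were highest in CIA; the heat shock genes drawn were lowest in Cont.

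Cell cycle genes were low in all libraries and highest in CIA+VFX. Of 17 measured G2/M genes 10 were called higher in CIA+VFX against CIA and none lower, with a median of 0.71. Keratinocyte markers were higher in CIA+VFX in these macrophages too, with 11 of 14 measured genes higher, none lower and a median of 0.87, and keratinocytes themselves held 1510, 2281 and 2202 CPM of the G2/M list against 501, 512 and 797 in the macrophages. The part of keratinocyte RNA in the G2/M difference was not tested. Mki67, the proliferation antigen, stood at 18.2, 25.9 and 42.5 CPM, with 38.7% of the CIA+VFX UMIs in 5 barcodes. Birc5, survivin, had 9, 20 and 40 UMIs in all, of which 65.0% lay in 5 barcodes in CIA+VFX. At least 2 UMIs of the 40 listed G2/M genes were found in 37.4%, 35.1% and 46.7% of thinned macrophages, and 4 of 9 measured genes were called after thinning. Mki67 UMIs were in 4.02%, 5.82% and 7.37% of thinned macrophages, below the 14.9%, 18.9% and 21.9% of thinned T cells. Of 20 measured S phase genes 5 were higher and 1 lower in CIA+VFX against CIA, and 2 of 12 were higher without the called doublets. Across all measured genes of that comparison 5.69% were higher and 3.51% lower.

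Complement genes beyond C1q had 5 of 17 called higher and 1 lower in CIA, and 3 of 16 higher without the barcodes that held fibroblast or melanocyte RNA. The lower gene was C6, at 182, 113 and 131 CPM (log2 ratio -0.69, -0.86 to -0.52). C3, the central complement component, stood at 11, 28.2 and 9.59 CPM, with 57.3% of the CIA UMIs in 5 barcodes. Genes of glycolysis and hypoxia had 5 of 23 higher and 3 lower in CIA, with 2 higher under TMM. Both lists are to be read against 16.7% higher and 8.55% lower among all measured genes.

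In iron handling, the ferritin chains were the most abundant genes: Fth1 stood at 7281, 10166 and 8102 CPM and Ftl1 at 6062, 8812 and 7111, both within 1.5-fold. Hmox1 stood at 1371, 1476 and 1322. Slc11a2, an iron importer, was lower in the model, at 116, 59.8 and 66.1, and Blvrb, biliverdin reductase B, was at 371, 591 and 480. Of 21 measured genes 5 were called higher and 3 lower in CIA, near the background, and 3 rather than 5 were higher with TMM.

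Among receptors and bridges for dying cells Mertk stood at 155, 186 and 223 CPM, its ligand Gas6 at 583, 683 and 749, and Cd36, a scavenger receptor for lipids, at 249, 384 and 462. Of 25 genes of this list 7 were higher in CIA and none lower, against 16.7% and 8.55% of all measured genes. Without the barcodes that held fibroblast or melanocyte RNA, 3 of 24 were higher. Lysosomal proteins had 1 of 35 called higher and 3 lower. Psap, the precursor of the saposins, stood at 2672, 1486 and 1459 CPM, and Ctsd, cathepsin D, at 1193, 805 and 777.

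Lipid genes were split. Apoe, apolipoprotein E, was the most abundant gene named here in each library, at 16217, 14778 and 13988 CPM. Abca1, the cholesterol exporter, stood at 1124, 617 and 737, and Pla2g2d, a secreted phospholipase, at 117, 27.5 and 17.1. Of the 50 Pla2g2d UMIs of CIA+VFX 32% lay in 5 barcodes. Alox5 and Ltc4s, enzymes of leukotriene synthesis, stood at 33.1, 82.4 and 88.7 CPM and at 195, 335 and 293, and both were called higher in CIA. Of 31 measured lipid genes 8 were called higher and 5 lower in CIA, against 16.7% and 8.55% of all measured genes.

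A pair of EGF receptor ligands, which act on epithelium, were lower in the model. Hbegf, a ligand of the EGF receptor, stood at 763, 384 and 334 CPM and Areg, another such ligand, at 236, 96.3 and 97.3, with 53.5% of the CIA+VFX UMIs of Areg in 5 barcodes. Igf1, a growth factor for hair follicles, stood at 416, 452 and 465 and Tgfb1 at 244, 159 and 195. Ecm1, a matrix protein, was higher, at 184, 490 and 449, as was Lgals1, galectin 1, at 420, 995 and 880. In this list of 33 measured genes 7 were higher and 8 lower in CIA, against 16.7% and 8.55% of all measured genes. Without the barcodes that held fibroblast or melanocyte RNA, 4 of 29 were higher.

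Transcription factors were mostly within 1.5-fold, with 8 of 48 higher and 5 lower in CIA (8 lower with TMM). The counts of 8 higher and 5 lower were near the shares of all genes, 16.7% and 8.55%. Klf2, a factor of quiescent cells, stood at 408, 717 and 887 CPM, while Id2 stood at 829, 408 and 452 and Irf8 at 158, 81.1 and 85.0. Of genes known to be induced by glucocorticoids, 7 of 17 were higher and 3 lower in CIA, but 4 higher without the barcodes that held fibroblast or melanocyte RNA. Zbtb16 stood at 98.2, 155 and 141 CPM, Tsc22d3, the leucine zipper GILZ, at 317, 326 and 367, and the metallothioneins Mt1 and Mt2 at 6993, 4408 and 5426 and at 1466, 784 and 1188.

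Venlafaxine acts on the serotonin and noradrenaline transporters. Most of the 30 listed genes of monoamine transport, reception and breakdown had too few UMIs to be measured in these macrophages. Maoa, monoamine oxidase A, which breaks down serotonin and noradrenaline, stood at 50.8, 50.8 and 64.4 CPM, under 1.5-fold apart.

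The largest single ratios, by the rule given in the processing notes, included genes of no list. In CIA against Cont these were Lrg1, a secreted glycoprotein that modulates TGF-beta signalling, at 10.5, 64.5 and 54.1 CPM, beside Cd209e, Hsph1 and Gdf15 on the higher side. All other kept barcodes held more Lrg1, 81.8 CPM in CIA and 92.4 in CIA+VFX, and the part of free RNA was not tested. In CIA+VFX against Cont, Npl, an enzyme that breaks down sialic acid, stood at 42.6, 127 and 135 and Tppp3 at 34.5, 94.0 and 111.

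In CIA+VFX against CIA the higher side held Itga4, the integrin alpha 4 chain, at 40.01, 42.4 and 73.7 CPM, Slamf1 at 41.2, 29.3 and 56.9, Steap4, a metalloreductase, at 116, 76.3 and 132, H1f0, a linker histone, at 43.8, 41.6 and 77.8, and Mex3c at 56.1, 29.5 and 54.8. All other kept barcodes of CIA+VFX held more H1f0 (108 CPM) and Mex3c (75.6 CPM) than the macrophages. The lower side held Atp1b1, a subunit of the sodium pump, at 54.9, 59.3 and 24.7, Gstp1, a glutathione transferase, at 37.9, 132 and 75, and Zfand2a at 64.9, 122 and 73.0. In CIA+VFX against Cont the higher side also held Tnfaip2, a gene induced by TNF, at 38.3, 78.6 and 109 CPM. The remaining extremes were fibroblast genes (Fmod, Pi16, Coch, Ccdc80, Adamts2, Postn and Tshz3) and genes of melanocytes or other cells (Trpm1, Mlana, Tyrp1, Pmel, Dct, Ptgds and Dcc), most of which rested on the few barcodes with such RNA.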

How the data were processed

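The authors deposited whole-number UMI counts per gene and cell barcode for 3 droplet libraries (Chromium GEM-X 3′ v4), made with Cell Ranger 8.0.1 on GRCm39, per the submitters' processing notes; those notes also name FastQC 0.11.7. A correction for free RNA or doublets is not given in the sources used here.

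The limits of the choice were applied to these raw counts. The macrophages, gene lists and alternatives were chosen with earlier results of these data known. UMIs were summed over the macrophages of a library (4173531 in Cont, 3894163 in CIA, 2918718 in CIA+VFX) and given as CPM with exact Poisson intervals, ratios with exact conditional binomial intervals and shares with Clopper-Pearson intervals, all at 95% and for counting error only. A gene was measured with at least 50 UMIs over both libraries and called at 1.5-fold or more. With 1 library a group no test was run. Thinning drew 3000 UMIs a barcode. T cells (at least 2 Cd3e UMIs, with no limit on C1q or keratin UMIs and doublets kept) served as the background of free RNA and doublets together. Doublets were scored against simulated ones (30 neighbours) and kept. Barcodes with at least 10 UMIs of the fibroblast or melanocyte markers, and those under 10 class II UMIs, were alternatives chosen after seeing the data.

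Genes were named by this rule: the markers and genes of the choice; the 10 highest and 10 lowest ratios of each comparison among genes that reached 100 UMIs and 50 CPM where they were higher and there 0.5 times the CPM of all other barcodes, without mitochondrial, ribosomal, haemoglobin and unnamed genes; the 15 genes highest against 4 myeloid sets; and, of each list, called members by size and those best known for the function.

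Promoter sequences came from RefSeq (GRCm38.p6, 27025 genes) by symbol and were not joined to coordinates of the files. Python 3.11.15, numpy 2.4.6, scipy 1.17.1, pandas 2.3.3, scikit-learn 1.9.0 and matplotlib 3.10.9 were used, with edgeR 4.0.16 in R 4.3.3 for TMM factors only (0.934, 1.01 and 1.06). The intervals and calls were run on simulated Poisson counts, the model that the intervals assume. This checks the computation only, because the simulated UMIs were not clumped by cell as the real ones were. A few genes of the lists are not reported here.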

Additional observations from a re-analysis of the deposited data

How the results depend on the processing

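No paired analysis was possible because each group is 1 library; no library could be left out. Depth limits low genes: 151, 149 and 80 macrophages held under 3000 UMIs, and genes under 50 UMIs were not compared. In each alternative for the share of kept barcodes Cont was highest and CIA+VFX lowest, but not among C1q barcodes, where CIA was lowest. The share of kept barcodes was 5.29% in Cont with a positive sum of at least 3, 4.94%, 3.62% and 2.49% with at least 4, 3.75%, 2.99% and 2.21% with no monocyte UMI, 6.67% (Cont) and 4.70% (CIA) with up to 5, 7.003%, 5.01% and 3.28% with no monocyte limit, 4.98% (Cont) with no Lyz1, Ear2 or Dcstamp UMI, 6.41%, 4.70% and 3.30% among thinned barcodes, 6.29% (Cont) and 3.45% (CIA+VFX) under limits of 1000 genes and 8% mitochondrial UMIs, and 53.8%, 46.6% and 52.3% of C1q barcodes. Counts for CIA against Cont were 993 higher after thinning, 2826 higher and 1639 lower from 10 UMIs, and 631 and 349 from 200; thinning and the minimum of 200 leave fewer UMIs or genes by construction. CIA+VFX against CIA had 1495 higher and 1024 lower from 10 UMIs, 85 and 67 from 200, and 195 lower without the called doublets. CIA+VFX against Cont had 806 and 935 with TMM, 770 and 975 with median of ratios, 2843 and 1337 from 10 UMIs, and 467 and 267 from 200.

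Of the genes followed singly, 131, 42 and 108 were called in CIA against Cont, CIA+VFX against CIA and CIA+VFX against Cont, and 89, 30 and 80 of them under each of 12 alternatives; 4, 5 and 5 genes took the other sign under at least 1. Without the barcodes that held fibroblast or melanocyte RNA, Pi16 came to -0.85, Coch to -1.31 and Dcc to 0.20 (log2, CIA against Cont); Pi16 to 0.38, Ccdc80 to 0.16, Pmel to 0.64, Postn to -0.51 and Dct to 0.84 (CIA+VFX against CIA); and Pi16 to -0.47, Coch to -0.041, Adamts2 to -0.12, Ptgds to 0.98 and Postn to -0.47 (CIA+VFX against Cont). Without the called doublets, Ptgds came to 0.31 (CIA against Cont) and 0.26 (CIA+VFX against Cont) and Ccdc80 to 0.61 (CIA+VFX against CIA). With no monocyte UMI, Pi16 came to 0.26 and Pmel to 1.09 (CIA+VFX against CIA). The causes were not tested.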
